A study of Homo sapiens with 8 samples.

Results

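The genes considered here write DNA methylation, copy it after replication, or protect it. They are the DNA methyltransferases DNMT1, DNMT3A and DNMT3B, the catalytically inactive cofactor DNMT3L, the ring finger proteins UHRF1 and UHRF2, the chromatin remodeller HELLS, the maternal factor DPPA3, the imprint-binding zinc finger protein ZFP57 and its corepressor TRIM28. All 10 were listed by name, and a gene was taken from every probe group (transcript cluster) of the array that the array annotation gives to that symbol alone. That gave 12 of 19460 such clusters and 10 of 18417 genes. The cells were NCCIT, an established human line of embryonic carcinoma grown in medium with serum, and had been transfected with siRNA that targeted TET1 (siTET1 group), TET2 (siTET2) or TET3 (siTET3), or with a non-targeting siRNA (siNTC). Per the methods of the study, each TET was targeted by a mixture of several siRNAs to that 1 gene, which depletes the transcript for a short time and does not remove the gene. Each group had 2 arrays, 8 in all, so every group carries transfection in common and the 3 depletions are compared with the same 2 siNTC arrays. The labels do not say that replicate arrays came from separate cultures, and the p-values therefore reflect no more than the spread from array to array.

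In mammals, DNMT3A and DNMT3B place methyl groups on unmethylated CpG sites, and DNMT3L, which has no activity of its own, stimulates both. After each round of replication UHRF1 recognises CpG sites methylated on the old strand only and brings DNMT1 to them, and HELLS opens nucleosomes so that repeats can be methylated. The TET enzymes work in the opposite direction and oxidise 5-methylcytosine, and in mouse DPPA3 shields methylated maternal DNA from that oxidation and keeps UHRF1 off chromatin, while ZFP57 and TRIM28 hold methylation at imprinted regions.

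DPPA3 rose about 3-fold and DNMT3L about 1.5-fold in all 3 depletions. UHRF1 was 1.44-fold and 1.43-fold lower than in siNTC in siTET2 and siTET3, and its paralogue UHRF2 rose 1.22-fold and 1.24-fold in the same groups. DNMT1 was 86.1% of its siNTC level in siTET3. DNMT3A passed no test in any comparison, and DNMT3B, HELLS, TRIM28 and ZFP57 moved little or were at the background of the array.

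Levels are log2 intensities as normalized by the authors, so a difference of 1 is a 2-fold change, and a level counted as background below 5.21, which 95% of 341 olfactory receptor genes did not exceed. Median log2 intensities of the arrays were between 6.22 and 6.27. Over genes, Pearson's r was 0.998 to 0.999 within a group, 0.995 to 0.998 from one depletion to another, and 0.989 to 0.991 between a depletion and siNTC. The targeted transcript was at 62.3% of siNTC for TET1 in siTET1, at 54.4% for TET2 in siTET2 and at 47.4% for TET3 in siTET3. The groups did not differ in that 1 gene alone. TET1 was also called lower in siTET2, at 81.4% of siNTC (limma adjusted p = 0.000287), and higher in siTET3, at 1.34-fold (adjusted p = 1.69e-05), and TET2 was called lower in siTET3, at 72.4% (adjusted p = 0.00177). All 7 measured markers of embryonic carcinoma were above background in every group, and their summed log2 level was 14.90 to 14.93 in siTET1, 14.86 to 14.87 in siTET2, 14.81 to 14.84 in siTET3 and 14.88 to 14.92 in siNTC. Of these 7 markers, 3 were called higher and 2 lower in siTET1, 2 higher and 4 lower in siTET2, and 2 higher and 3 lower in siTET3. The shares of all genes called are given in the next paragraph. DNMT3B, one of the 10 genes, and GDF3 belong to this marker list. POU5F1 and NANOG were not analysed here. The summed level of 6 trophectoderm markers was lower in the depletions, at 12.07 to 12.09 in siTET1, 11.86 to 11.90 in siTET2 and 11.75 to 11.79 in siTET3, against 12.37 to 12.40 in siNTC, and 3 of the 6 were called lower in the mean of the depletions, among them HAND1, which fell by 0.88 on the log2 scale. None of the 6 was called higher in that mean, but CGA, which was below background, was in siTET2 (0.32, limma adjusted p = 0.0248). With each array left out in turn, CGA in siTET2 ran from 0.20 to 0.44. Of 6 endoderm markers, 2 were above background. In the mean of the depletions 2 of the 6 were called higher, GATA6 (0.37), which was above background, and FOXA2 (0.25), which was below it. With each array left out in turn, FOXA2 ran from 0.21 to 0.28. The endoderm marker AFP was called lower (-0.51) but was below background, and it ran from -0.86 to -0.17 with each array left out in turn. The part of these markers in the results that follow was not tested. In bulk RNA, fewer cells of a type and less RNA per cell cannot be told apart.

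A gene was called when its adjusted p was under 0.05 (limma, Benjamini-Hochberg over all 18417 genes). In siTET1, 3 of the 10 genes passed, 2 higher and 1 lower, where 34.3% of all genes passed, 15.6% higher and 18.7% lower. In siTET2, 5 passed, 3 higher and 2 lower, where 36.2% of all genes passed, 14.4% higher and 21.8% lower. In siTET3, 6 passed, 4 higher and 2 lower, where 36.1% of all genes passed, 13.8% higher and 22.3% lower. In the mean of the depletions 5 passed, 3 higher and 2 lower, where 40.7% of all genes passed, 16.5% higher and 24.2% lower. Whether the 10 genes were called more often than other genes was not tested. The median absolute log2 change of the 10 genes was 0.10 in siTET1, 0.15 in siTET2 and 0.17 in siTET3, against 0.14, 0.15 and 0.15 over all genes and 0.17, 0.18 and 0.19 over the genes above background. At a change of at least 1.5-fold, 2 of the 10 (DPPA3 and DNMT3L) were called in each depletion, where 5.13% of all genes were in siTET1, 6.16% in siTET2 and 5.91% in siTET3.

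**Figure D1:**
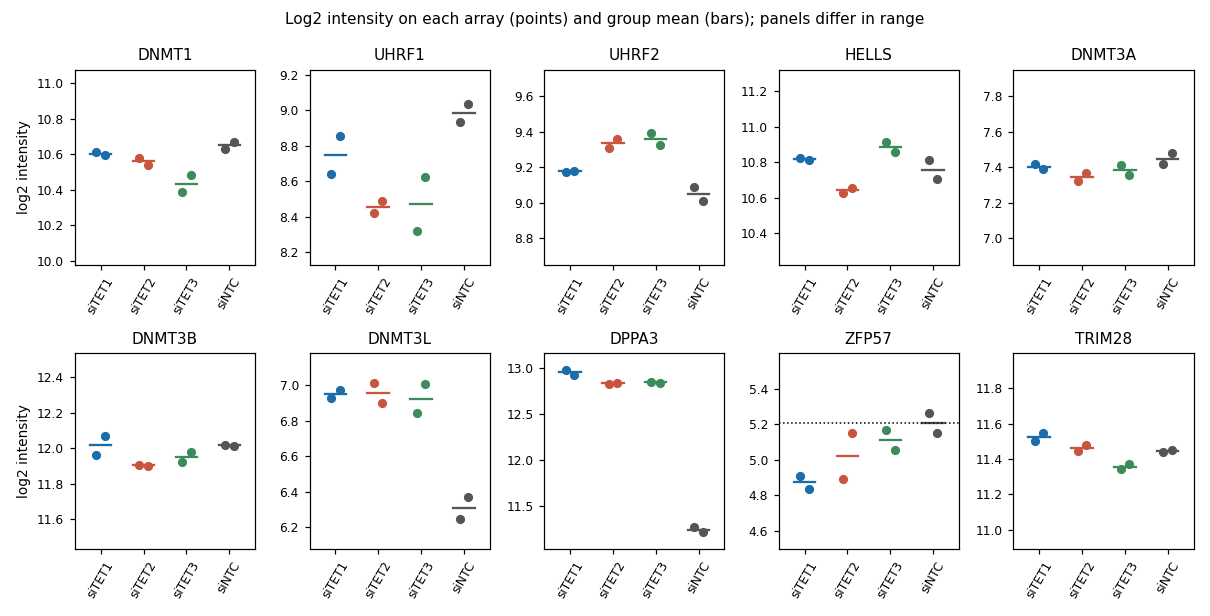
Log2 intensity (vertical axes) of the 10 genes on each array of siTET1, siTET2, siTET3 and siNTC; points are arrays, bars are group means and the dotted line in the ZFP57 panel is the background at 5.21. DPPA3 and DNMT3L are higher on all 6 depletion arrays than on both siNTC arrays, and UHRF1 is lower on all 6.

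Transcripts of the maintenance machinery were examined first. UHRF1 (GRCh38.p14 chr19:4903080-4962154) reads hemimethylated CpG sites through its SRA domain and marks histone H3 with ubiquitin, which DNMT1 binds. Its brighter cluster had log2 intensities of 8.64 and 8.85 in siTET1, 8.42 and 8.49 in siTET2 and 8.32 and 8.62 in siTET3, against 8.94 and 9.04 in siNTC. All depletion arrays were below both siNTC arrays, and the siTET1 and siTET3 replicates spread by more than those of the other groups. UHRF1 fell by 0.53 ± 0.093 (log2, standard error of the fit, n = 2 arrays per group here and below) in siTET2, with an adjusted p of 0.000527 by limma, and by 0.51 ± 0.093 in siTET3 (adjusted p = 0.000686). In siTET1 the change was -0.24 ± 0.093 and was not past the test (adjusted p = 0.0636). From high to low the group means ran in the order siNTC, siTET1, siTET3, siTET2, and among the depletions no pair differed past the test, with siTET2 at -0.29 ± 0.093 against siTET1 (adjusted p = 0.0892) and siTET3 at -0.27 ± 0.093 against siTET1 (adjusted p = 0.0723). The siTET1 value depended on single arrays, at -0.13 (adjusted p = 0.434) without siTET1 replicate 1 and -0.35 (adjusted p = 0.0321) without siTET1 replicate 2, and it was also past the test without either siTET3 array (adjusted p = 0.0169 and 0.0172). The difference between siTET2 and siTET1 was past the test without either siTET3 array or with only the arrays compared (adjusted p = 0.0104 to 0.0249), and that between siTET3 and siTET1 without siTET3 replicate 2, at -0.42 (adjusted p = 0.00636).

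A second cluster annotated to UHRF1 carried no RefSeq transcript and was below background on all 8 arrays, at 4.28 to 4.58. It therefore gave no measured level for UHRF1. With the mean of both clusters in place of the brighter one, the UHRF1 change was -0.21 in siTET2 (adjusted p = 0.104) and -0.23 in siTET3 (adjusted p = 0.0787), and both calls were lost.

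DNMT1 (chr19:10133346-10194953) is the enzyme that restores methylation on the new DNA strand. Its log2 intensities were 10.61 and 10.59 in siTET1, 10.58 and 10.54 in siTET2 and 10.39 and 10.48 in siTET3, against 10.63 and 10.67 in siNTC. The siTET3 arrays were the lowest and did not overlap with any other group. The change in siTET3 was -0.22 ± 0.042 (limma adjusted p = 0.00124), and it kept its call in every alternative run, at -0.26 to -0.17. In siTET1 it was -0.047 ± 0.042 (adjusted p = 0.450) and in siTET2 -0.091 ± 0.042 (adjusted p = 0.119). DNMT1 was lower in siTET3 than in siTET1, by 0.17 ± 0.042 (limma adjusted p = 0.0186), and the difference between siTET3 and siTET2 was -0.13 ± 0.042 (adjusted p = 0.0744). The difference from siTET1 was lost without siTET1 replicate 1 or 2 (adjusted p = 0.115 and 0.0932) and without siTET3 replicate 1 (adjusted p = 0.131).

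UHRF2 (chr9:6413199-6507054) shares the domains of UHRF1 but does not replace it in maintenance methylation, and it can bind 5-hydroxymethylcytosine. Its log2 intensities were 9.17 and 9.18 in siTET1, 9.31 and 9.36 in siTET2 and 9.39 and 9.33 in siTET3, against 9.09 and 9.01 in siNTC. Every depletion array was above both siNTC arrays, and siTET1 lay between siNTC and the other depletions. UHRF2 rose 1.22-fold in siTET2 (log2 0.29 ± 0.051, limma adjusted p = 0.000615) and 1.24-fold in siTET3 (0.31 ± 0.051, adjusted p = 0.000343). The siTET1 change was 0.13 ± 0.051 (adjusted p = 0.0739). The difference between siTET3 and siTET1 was 0.18 ± 0.051 (limma adjusted p = 0.0329), and that between siTET2 and siTET1 was 0.16 ± 0.051 (adjusted p = 0.0909). The first of these was lost without any one siTET1 or siTET2 array or siTET3 replicate 1 (adjusted p = 0.0589 to 0.164). UHRF1 and UHRF2 thus moved in opposite directions in siTET2 and siTET3, and the sizes of these changes did not differ past the test between siTET3 and siTET2 for either gene (adjusted p = 0.944 for UHRF1 and 0.840 for UHRF2).

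HELLS (chr10:94545788-94613905), a nucleosome remodeller of the SNF2 family that is mutated in a human immunodeficiency with loss of methylation at satellite repeats, did not move one way in the 3 depletions. Its log2 intensities were 10.83 and 10.82 in siTET1, 10.63 and 10.65 in siTET2 and 10.92 and 10.86 in siTET3, against 10.82 and 10.70 in siNTC. The siTET2 arrays were below and the siTET3 arrays above every other array, and the siNTC replicates spread more than those of any depletion. HELLS was higher in siTET3 than in siTET2 by 0.25 ± 0.044, or 1.19-fold (limma adjusted p = 0.00273). It was lower in siTET2 than in siTET1 by 0.18 ± 0.044 (adjusted p = 0.0294). Against siNTC the changes were 0.061 ± 0.044 in siTET1 (adjusted p = 0.327), -0.12 ± 0.044 in siTET2 (adjusted p = 0.0506) and 0.13 ± 0.044 in siTET3 (adjusted p = 0.0343). The siTET3 call was lost without siNTC replicate 2, at 0.073, and without siTET3 replicate 1, at 0.10. It was also lost without any one siTET1 or siTET2 array, with only the arrays compared, and without an intensity trend. The siTET2 value was past the test without siNTC replicate 2, at -0.17 (adjusted p = 0.0114), and the difference between siTET2 and siTET1 was lost without any one array of those groups (adjusted p = 0.149 to 0.234).

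**Figure D2:**
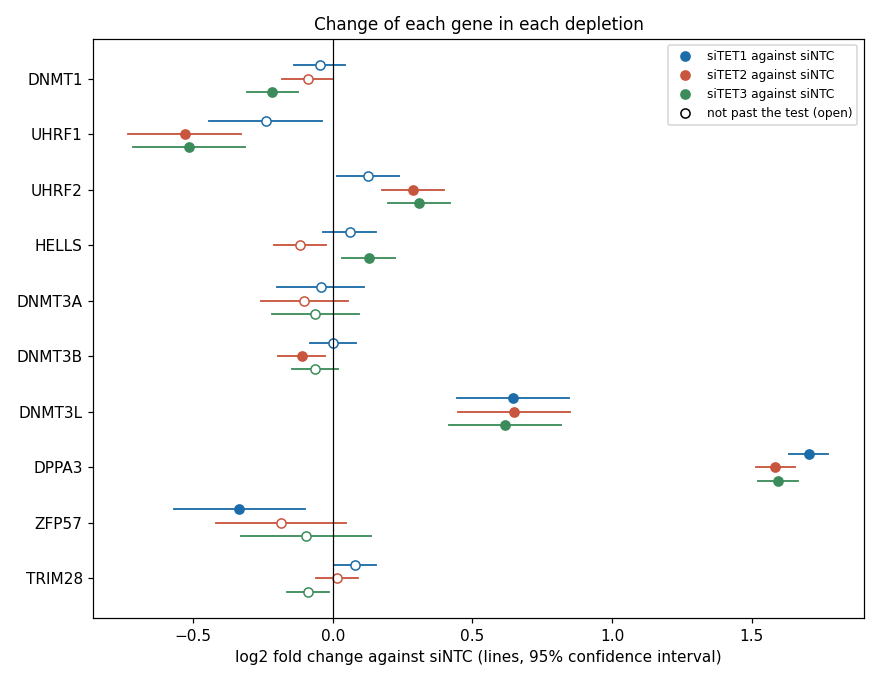
Change of each gene in siTET1, siTET2 and siTET3, as log2 of the ratio to siNTC (horizontal axis); points are estimates from the fit, lines are 95% confidence intervals and open points are not past the test. DPPA3 lies between 1.58 and 1.71 and DNMT3L between 0.62 and 0.65 in the 3 depletions, while DNMT3A lies between -0.10 and -0.04 with open points only.

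The de novo enzymes changed less. DNMT3A (chr2:25227874-25342590) had log2 intensities of 7.42 and 7.39 in siTET1, 7.32 and 7.37 in siTET2 and 7.41 and 7.36 in siTET3, against 7.42 and 7.48 in siNTC. The siTET2 and siTET3 arrays lay below both siNTC arrays, and siTET1 overlapped with siNTC. The changes were -0.043, -0.10 and -0.062 (± 0.072 each) in siTET1, siTET2 and siTET3, with limma adjusted p-values of 0.707, 0.310 and 0.547. The 95% confidence intervals of the ratio to siNTC were 0.871 to 1.08 in siTET1, 0.836 to 1.04 in siTET2 and 0.860 to 1.07 in siTET3.

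DNMT3B (chr20:32762385-32809356), the main de novo enzyme of pluripotent cells, had log2 intensities of 11.96 and 12.07 in siTET1, 11.91 and 11.90 in siTET2 and 11.92 and 11.98 in siTET3, against 12.02 and 12.01 in siNTC. The siTET2 and siTET3 arrays lay below both siNTC arrays, and the siTET1 arrays lay on either side of them. The siTET2 change was -0.11 ± 0.038 (limma adjusted p = 0.0371), at 92.6% of siNTC. Leaving out either siTET2 array or either siNTC array ended that call, though the change stayed at -0.12 to -0.11 with each array left out in turn. A fit without an intensity trend also ended it (limma adjusted p = 0.185). The log2 change was 0.0002 ± 0.038 in siTET1 (adjusted p = 0.998) and -0.064 ± 0.038 in siTET3 (adjusted p = 0.224), with 95% confidence intervals of the ratio to siNTC of 0.944 to 1.06 and 0.903 to 1.01.

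DNMT3L (chr21:44246339-44261897) pairs with DNMT3A and DNMT3B, senses unmethylated histone H3 and is a marker of germ cells and early embryonic cells. Its log2 intensities were 6.93 and 6.97 in siTET1, 7.01 and 6.90 in siTET2 and 6.84 and 7.01 in siTET3, against 6.25 and 6.37 in siNTC. The lowest depletion array was above the higher siNTC array by more than the spread within any group, and all 8 arrays were above background. DNMT3L rose 1.56-fold in siTET1 (log2 0.64 ± 0.092, limma adjusted p = 0.000118), 1.57-fold in siTET2 (0.65 ± 0.092, adjusted p = 9.87e-05) and 1.53-fold in siTET3 (0.62 ± 0.092, adjusted p = 0.000156). In order of increase it stood at position 304, 343 and 283 of 18417 genes in siTET1, siTET2 and siTET3. The 3 depletions did not differ past the test, with differences of 0.0056 between siTET2 and siTET1 (95% confidence interval -0.20 to 0.21), -0.027 between siTET3 and siTET1 (-0.23 to 0.17) and -0.033 between siTET3 and siTET2 (-0.23 to 0.17). Each call against siNTC held in every alternative run, at 0.53 to 0.71.

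DPPA3, also known as STELLA, showed the largest change of the 10 genes in every depletion. It lies at chr12:7711433-7717559, near the pluripotency genes GDF3 and NANOG. The brighter of its clusters had log2 intensities of 12.98 and 12.92 in siTET1, 12.82 and 12.83 in siTET2 and 12.84 and 12.84 in siTET3, against 11.27 and 11.22 in siNTC. The depletion arrays lay close together and at least 1.5 above both siNTC arrays. DPPA3 rose 3.26-fold in siTET1 (log2 1.71 ± 0.032, limma adjusted p = 3.80e-12), 3.0-fold in siTET2 (1.58 ± 0.032, adjusted p = 6.33e-12) and 3.02-fold in siTET3 (1.59 ± 0.032, adjusted p = 8.81e-12). It stood at position 14, 22 and 10 in order of increase in siTET1, siTET2 and siTET3. The mean of the depletions was 1.63 ± 0.026 above siNTC, and since all 3 comparisons use the same siNTC arrays, any departure of those arrays enters each of them.

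A second DPPA3 cluster, not used for the gene, had log2 intensities of 12.63 and 12.56 in siTET1, 12.43 and 12.44 in siTET2 and 12.36 and 12.37 in siTET3, against 10.55 and 10.51 in siNTC. It rose more, 4.17-fold, 3.73-fold and 3.56-fold in siTET1, siTET2 and siTET3. The reference annotation holds 12 genes named as DPPA3 pseudogenes, of which only DPPA3P2 had a cluster of its own, at 5.82 and 5.75 in siTET1, 5.76 and 5.96 in siTET2 and 6.10 and 5.79 in siTET3, against 5.22 and 4.96 in siNTC, with the last siNTC array below background. When every cluster was tested on its own, the DPPA3P2 cluster was called higher in siTET1 (limma adjusted p = 0.00100), siTET2 (adjusted p = 0.000454) and siTET3 (adjusted p = 0.000206), and no fold is given since its siNTC mean was below background. How much signal the DPPA3 clusters and the pseudogenes share was not tested.

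DPPA3 was slightly lower in siTET2 than in siTET1, by 0.12 ± 0.032 (limma adjusted p = 0.0449), and in siTET3 than in siTET1, by 0.11 ± 0.032 (adjusted p = 0.0383). Both calls were lost on leaving out any one array of the 2 groups compared and with quantile normalization, and the second also without either siTET2 array. In the second cluster the same differences were -0.16 (adjusted p = 0.0182) and -0.23 (adjusted p = 0.00107), in the same direction.

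**Figure D3:**
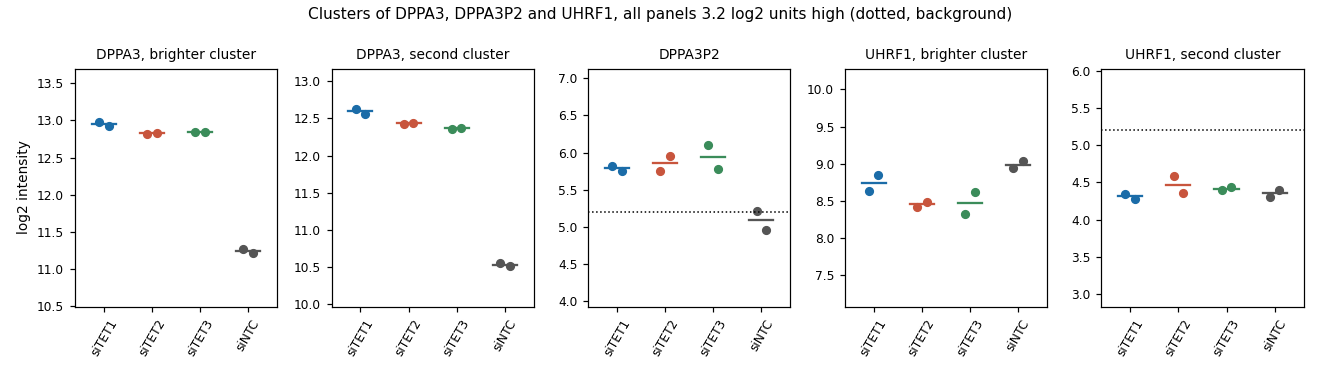
Log2 intensity (vertical axes, each spanning 3.2 units) on each array of siTET1, siTET2, siTET3 and siNTC for both DPPA3 clusters, the pseudogene DPPA3P2 and both UHRF1 clusters; points are arrays, bars are group means and the dotted line is the background at 5.21. Both DPPA3 clusters and DPPA3P2 are higher in the depletions, while the second UHRF1 cluster stays below background at 4.28 to 4.58.

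The promoters of DPPA3 and UHRF1 are shown because these genes had the largest rise and the largest fall among the 10 in the mean of the depletions, and because CpG sites are where the methyltransferases mainly act. Each is a 300-base RefSeq window (GRCh38.p14) from 250 bases before to 50 bases after the transcription start, printed 5′ to 3′ on the strand of the gene with CG dinucleotides in capitals. The DPPA3 window is chr12:7711183-7711482 on the plus strand and the UHRF1 window is chr19:4909251-4909550 on the plus strand, the first of 3 windows of that gene.
DPPA3: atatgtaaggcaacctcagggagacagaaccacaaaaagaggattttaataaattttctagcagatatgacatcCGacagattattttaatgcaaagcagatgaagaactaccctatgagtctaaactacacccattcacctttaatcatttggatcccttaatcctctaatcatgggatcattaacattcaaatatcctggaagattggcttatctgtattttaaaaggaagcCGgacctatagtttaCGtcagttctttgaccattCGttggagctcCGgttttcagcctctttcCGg
UHRF1: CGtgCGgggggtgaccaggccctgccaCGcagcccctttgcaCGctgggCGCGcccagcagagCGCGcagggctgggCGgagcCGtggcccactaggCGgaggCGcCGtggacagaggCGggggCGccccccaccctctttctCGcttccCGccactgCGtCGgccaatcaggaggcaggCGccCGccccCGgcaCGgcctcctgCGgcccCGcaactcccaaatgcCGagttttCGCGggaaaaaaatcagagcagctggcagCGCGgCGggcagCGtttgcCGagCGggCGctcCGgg
The DPPA3 window held 6 CG dinucleotides and 38.3% G and C, and 36.8% of the 35116 windows in the RefSeq table had as few. The UHRF1 window held 36 CG dinucleotides and 74.0% G and C, and 12.7% of windows had as many. The median over all windows was 14 CG dinucleotides, with quartiles of 4 and 28. Of the other genes with a window, DNMT1 had 30, UHRF2 26, HELLS 22, ZFP57 20 and DNMT3B 3 CG dinucleotides, and the 6 windows of DNMT3A had 18 to 46. The DNMT3B window (chr20:32779602-32779901) lies inside the gene, which starts at 32762385, so it does not describe a promoter at that start. Some DNMT3A windows and the printed UHRF1 window also lie inside the gene as annotated. No window for DNMT3L or TRIM28 was used here. Windows were also searched on both strands for TTTCCCGC and TTTGGCGC, letters typical of sites for E2F factors, the drivers of S phase genes. Matches to these motifs did not overlap each other. The UHRF1 window held 1 match, starting 14 bases before the start, and the HELLS window 2, starting 76 and 8 bases before it. The other members with a window had none, and 2.27% of all windows held a match. A match is a description of the letters and says nothing of binding.

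ZFP57 (chr6:29672392-29681152) and TRIM28 (chr19:58544064-58550715) work together, ZFP57 binding a methylated motif in imprinted regions and TRIM28 bringing in the histone methyltransferase SETDB1. ZFP57 was at background, with log2 intensities of 4.91 and 4.84 in siTET1, 4.89 and 5.15 in siTET2 and 5.17 and 5.05 in siTET3, against 5.26 and 5.15 in siNTC. Only siNTC replicate 1 was above the background of 5.21. The siTET1 value passed the test (limma adjusted p = 0.0283), and no fold is given since no depletion array was measured above background. Leaving out either siTET1 array ended that call, with adjusted p-values of 0.0742 without siTET1 replicate 1 and 0.143 without siTET1 replicate 2, and it was 0.156 without siNTC replicate 1.

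TRIM28, a widely expressed gene, had log2 intensities of 11.50 and 11.55 in siTET1, 11.44 and 11.48 in siTET2 and 11.34 and 11.37 in siTET3, against 11.44 and 11.45 in siNTC. The siTET3 arrays were the lowest and the siTET1 arrays the highest, and siTET2 overlapped with siNTC. Against siNTC the changes were 0.078 ± 0.035 in siTET1 (limma adjusted p = 0.107), 0.016 ± 0.035 in siTET2 (adjusted p = 0.784) and -0.088 ± 0.035 in siTET3 (adjusted p = 0.0675). TRIM28 was lower in siTET3 than in siTET1 by 0.17 ± 0.035, at 89.1% of the siTET1 level (limma adjusted p = 0.00723), a call that was lost without siTET1 replicate 2, at -0.14 (adjusted p = 0.0959).

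Between the depletions, fewer genes differed. In siTET2 against siTET1, 2 of the 10 genes passed, both lower, where 6.46% of all genes passed, 2.33% higher and 4.13% lower. In siTET3 against siTET1, 4 passed, 1 higher and 3 lower, where 13.8% of all genes passed, 3.82% higher and 9.94% lower. In siTET3 against siTET2 only HELLS passed, as higher, where 12.2% of all genes passed, 4.94% higher and 7.24% lower. The median absolute difference of the 10 genes was 0.12 between siTET2 and siTET1 and 0.14 between siTET3 and siTET1, with 0.08 and 0.10 over all genes, and 0.04 between siTET3 and siTET2, with 0.10 over all genes.

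The genes that work with these proteins were then counted, list by list, in the same comparisons. Each count reads against the share of all genes called the same way, which was 15.6% higher and 18.7% lower in siTET1, 14.4% and 21.8% in siTET2, 13.8% and 22.3% in siTET3, and 16.5% and 24.2% in the mean of the depletions. Of 16 partners of maintenance at the replication fork, 5 were higher and 4 lower in siTET1, 3 higher and 4 lower in siTET2, and 3 higher and 8 lower in siTET3. The 5 higher in siTET1 became 3 without siTET1 replicate 1, either siTET2 array or siNTC replicate 2, and the 8 lower in siTET3 became 5 without siNTC replicate 1. The median change in the mean of the depletions was -0.11, against -0.03 over all genes. CDCA7, the activator of HELLS, had log2 intensities of 9.34 and 9.34 in siTET1, 9.15 and 9.22 in siTET2 and 9.37 and 9.38 in siTET3, against 10.07 and 9.99 in siNTC. It fell by 0.73 ± 0.040 in the mean of the depletions (limma adjusted p = 1.69e-08), and all depletion arrays were below both siNTC arrays, whereas HELLS itself was not past the test in that comparison (adjusted p = 0.640). PCLAF, a substrate of UHRF1 that binds the PCNA clamp (-0.41), the kinase CDK2 (-0.39) and the chromatin assembly subunit CHAF1B (-0.36) fell as well. CDCA7L, a relative of CDCA7 (0.34), the histone methyltransferase SUV39H2 (0.33) and the clamp loader subunit RFC1 (0.30) rose.

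UHRF1 is known as a target of E2F factors, so the S phase genes are given beside it. Of 20 such genes, 6 were higher and 10 lower in siTET1, 4 higher and 12 lower in siTET2, and 4 higher and 11 lower in siTET3. The 6 higher in siTET1 became 3 without siTET1 replicate 1 or without an intensity trend. Their median change in the mean of the depletions was -0.21, against -0.03 over all genes. The licensing factor CDT1 (-0.56 ± 0.096), the helicase subunit MCM6 (-0.53 ± 0.048), thymidylate synthase TYMS (-0.48 ± 0.041) and MCM5 (-0.44 ± 0.044) fell most, and MCM7 (0.34 ± 0.030) and GINS2 (0.32 ± 0.041) rose. Their part in the lower UHRF1 and DNMT1 levels was not tested.

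**Figure D4:**
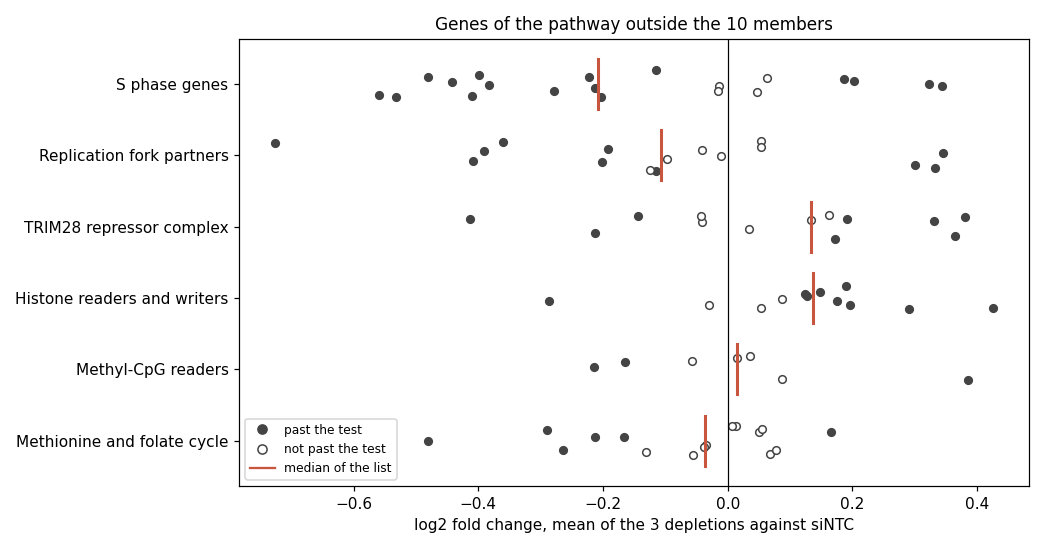
Log2 fold change of the mean of the 3 depletions against siNTC (horizontal axis) for the genes of 6 lists around the 10 genes; points are genes, filled where past the test, and bars are list medians. The median is -0.21 for S phase genes and -0.11 for replication fork partners, and 0.13 and 0.14 for the TRIM28 repressor complex and the histone readers and writers.

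Around TRIM28, 5 of 13 genes of the repressor complex were higher and 2 lower in siTET1, 5 higher and 3 lower in siTET2, and 4 higher and 3 lower in siTET3, with a median change of 0.13 in the mean of the depletions. The 2 lower in siTET1 became 1 without either siTET1 array or siNTC replicate 2. ATF7IP, the partner that stabilises SETDB1, fell by 0.41 ± 0.035 (limma adjusted p = 7.15e-07), while TASOR (0.38 ± 0.055) and MPHOSPH8 (0.33 ± 0.057), subunits of the HUSH silencing complex, and the heterochromatin protein CBX3 (0.36 ± 0.041) rose. Of 12 measured histone readers and writers that steer de novo methylation, 6 were higher and 2 lower in siTET1, 7 higher and 1 lower in siTET2, and 5 higher and 1 lower in siTET3. The 2 lower in siTET1 became 1 without siTET1 replicate 1 or siNTC replicate 1. The 7 higher in siTET2 became 4 without siTET2 replicate 2 or siNTC replicate 2, and without that siNTC array the 5 higher in siTET3 became 3. JARID2 (0.42 ± 0.027), a cofactor of Polycomb complex 2, and the H3K36 methyltransferase NSD3 (0.29 ± 0.043) rose, and EED (-0.29 ± 0.038), a core subunit of that Polycomb complex, fell.

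Of 7 measured readers of methylated CpG, ZBTB38 rose (0.39 ± 0.054), and MBD3 (-0.21 ± 0.061) and MBD1 (-0.16 ± 0.053) fell in the mean of the depletions. The other 4 were not past the test, and 1 of these passed as higher without siTET2 replicate 1, siTET3 replicate 1 or siNTC replicate 1. Without siNTC replicate 2 both lower calls were lost (adjusted p = 0.0905 for MBD3 and 0.117 for MBD1), and that of MBD1 was also lost without siTET1 replicate 2, siTET2 replicate 2 or siNTC replicate 1 (adjusted p = 0.0577 to 0.0896). In the methionine and folate cycle, which supplies the methyl donor, 1 of 16 measured genes was higher and 5 lower in the mean of the depletions, and the median change was -0.04. TYMS, the folate carrier SLC19A1 (-0.29 ± 0.066) and SHMT2 (-0.26 ± 0.038), which feeds serine carbon into the cycle, fell. Without siNTC replicate 1 the SLC19A1 value was -0.18 and not past the test (adjusted p = 0.0913), and 2 genes of the cycle were higher.

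The neighbours of the genes on the chromosome were compared with them. Among the 3 measured genes on either side of DPPA3, GDF3, a growth factor of pluripotent cells, rose by 0.29 in siTET1 (limma adjusted p = 1.34e-05), 0.37 in siTET2 (1.59e-06) and 0.11 in siTET3 (0.0163), while CD163, APOBEC1, NANOGNB and SLC2A14 were not past the test. The siTET3 call of GDF3 was lost without siTET3 replicate 2 (adjusted p = 0.0759) or siNTC replicate 2 (adjusted p = 0.114). CLEC4C, below background over the 8 arrays, was called lower in all 3. The median change of these 6 neighbours in the mean of the depletions was -0.03, and GDF3 was the only one of them called higher. Beside DNMT3L, ICOSLG rose by 0.50 in siTET1 (adjusted p = 0.000189), 0.61 in siTET2 (3.41e-05) and 0.35 in siTET3 (0.00295), GATD3 was lower in all 3 (in siTET1 not without siTET1 replicate 1 or siNTC replicate 1, adjusted p = 0.192 and 0.0968), and the median of the 6 neighbours was 0.01. AIRE, PFKL, PWP2 and CFAP410 passed the test in at most 2 of the depletions. The medians of the 6 neighbours were 0.06 for UHRF1 and -0.11 for UHRF2, opposite in sign to the changes of the genes themselves. Over 10 genes on either side, the medians were -0.11 for DPPA3, with 3 of 20 higher and 6 lower, 0.10 for DNMT3L, 0.006 for UHRF1 and -0.09 for UHRF2.

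**Figure D5:**
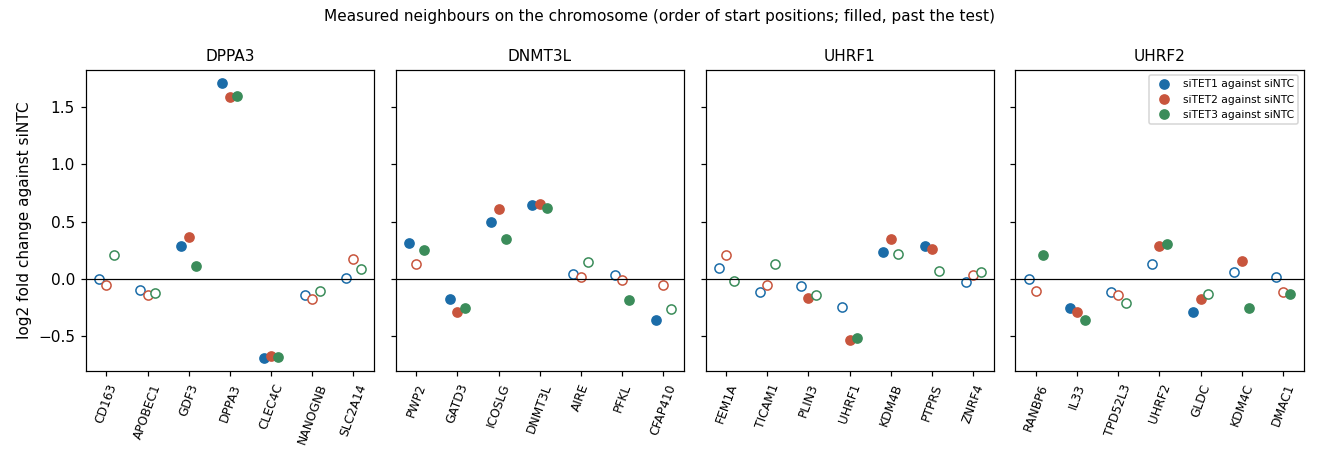
Log2 fold change against siNTC (vertical axis) in siTET1, siTET2 and siTET3 for DPPA3, DNMT3L, UHRF1 and UHRF2 and the 3 measured genes on either side, in order of start position (horizontal axis); filled points are past the test. DPPA3, at 1.58 to 1.71, stands above its neighbours, and ICOSLG, at 0.35 to 0.61, is the neighbour of DNMT3L nearest to it in value.

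The genes whose levels followed each of the 4 most variable genes most closely over the 8 arrays were also listed, among 2452 genes above background whose group means spanned at least 0.5. The arrays of a group share their treatment, so these coefficients describe the pattern over 4 groups and carry no test. DPPA3 was followed most closely by PSMB6, WASF3, CLDN16, HNRNPA2B1 and TMEM106C (Pearson's r from 0.9993 to 0.9962), which rose by 0.68 to 4.13 in the mean of the depletions. DNMT3L was followed by RPL29, SLC22A5, COX6C, PHLDB2 and TMSB4XP2 (r from 0.9936 to 0.9868), and UHRF1 by GPAA1, TMEM171, C22orf46P, ZNF607 and FERMT1 (r from 0.9804 to 0.9538). For ZFP57 the closest coefficients were lower, from 0.8721 for YIPF1 to 0.8524 for DCUN1D5. ZFP57 was above background on only 1 of the 8 arrays, so these coefficients rest on values at background.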

How the data were processed

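RNA from 8 samples of NCCIT cells (4 groups of 2) was hybridised, per the labels, to Affymetrix Human Gene 1.0 ST arrays from 250 ng of total RNA. The deposited values are log2 intensities that the authors normalized between arrays. Partek is the tool the labels name. Its version and its settings for background and for summarizing probes remain not given in the sources used here. GEO's annotation of the array gave 1 gene symbol to 19460 of 33297 clusters, and the brightest cluster stood for a gene with several (769 genes), which left 18417 genes. A log2 value of 5.21, exceeded by the mean of few of 341 olfactory receptor genes, served as background. The number of arrays limits the precision.

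The arrays of all 4 groups entered 1 limma fit (version 3.58.1, R 4.3.3, moderated variances with a trend on intensity, residual degrees of freedom 4.00, prior 8.55), two-sided, with Benjamini-Hochberg adjustment over 18417 genes. The fit was also run on simulated data in which few genes changed, in 1 group only. Many more genes were called in the real data, so that run cannot tell how the fit behaves here. The members and gene lists were chosen with earlier results of these data known. Named list genes were up to 4 called genes with the largest change in the mean of the depletions and the largest called change each way in a depletion. Neighbours of genes called at 1.5-fold or more and the 5 closest followers of the 4 most variable members were named too. Alternatives were quantile normalization, only the arrays compared, no intensity trend, genes above background only, other uses of clusters, a replicate block, each array left out, and 10 neighbours a side. Gene positions came from RefSeq (GRCh38.p14). Python 3.11.15 with matplotlib 3.10.9 drew the figures.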

Additional observations from a re-analysis of the deposited data

Results flagged for a closer look

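Each of the following results was singled out because the response differed between depletions in a direct test of the difference (limma, adjusted over 18417 genes). HELLS was higher in siTET3 than in siTET2 by 0.25 (adjusted p = 0.00273), which was lost without an intensity trend (adjusted p = 0.0540), and it was -0.18 in siTET2 against siTET1 (adjusted p = 0.0294). In siTET3 against siTET1, TRIM28 was -0.17 (adjusted p = 0.00723), DNMT1 was -0.17 (adjusted p = 0.0186) and UHRF2 was 0.18 (adjusted p = 0.0329). DPPA3 was -0.12 in siTET2 against siTET1 (adjusted p = 0.0449) and -0.11 in siTET3 against siTET1 (adjusted p = 0.0383), beside increases of 1.58 to 1.71 against siNTC. Of these 7 differences, the one in HELLS between siTET3 and siTET2 was the only one that held with every array left out in turn, at 0.22 to 0.27. It was also the largest of them, at 1.19-fold.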

How the results depend on the processing

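Of 26 calls among 70 comparisons of the 10 genes, 12 held in every alternative run: those of DPPA3 and DNMT3L against siNTC, of UHRF2 in siTET2, siTET3 and the mean of the depletions, and of DNMT1 in siTET3. The cause of the shifts below was not tested.

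Counts of genes past the test against siNTC moved by less than 1.5 times under each alternative. Between depletions, the 1189 genes of siTET2 against siTET1 became 2370 with only the arrays compared, 223 without an intensity trend and 248 to 1615 when each array was left out in turn. The 2534 genes of siTET3 against siTET1 became 1287 without a trend and 1008 to 3242 with an array left out, and the 2244 of siTET3 against siTET2 became 1018 and 817 to 2836. Of the 10 genes, the 2 called in siTET2 against siTET1 became 1 with quantile normalization or every cluster tested on its own, 5 with only the arrays compared, 0 without a trend, and 0 to 3 with an array left out. The 4 called in siTET3 against siTET1 became 2 with only the arrays compared, 0 without a trend and 0 to 4 with an array left out. The 1 called in siTET3 against siTET2 became 0 without a trend, 2 with genes above background only and 1 to 2 with an array left out.

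No called value changed sign. Uncalled values near 0 did. With quantile normalization these were DNMT3B in siTET1 (-0.0016), DNMT3A in siTET3 against siTET1 (0.0454), and DNMT3L in siTET2 against siTET1 (-0.0027), siTET3 against siTET1 (0.0141) and siTET3 against siTET2 (0.0168). With the mean of clusters they were UHRF1 (-0.0173) and DPPA3 (-0.0292) in siTET3 against siTET2. With each array left out in turn, DNMT3B in siTET1 ran from -0.0524 to 0.0528, TRIM28 from -0.0019 to 0.0331 in siTET2 and from -0.0061 to 0.01 in the mean, and HELLS in the mean from -0.0316 to 0.0794. DNMT3L ran from -0.0502 to 0.0614 in siTET2 against siTET1, from -0.1106 to 0.0566 in siTET3 against siTET1 and from -0.1162 to 0.051 in siTET3 against siTET2, and DNMT3A from -0.0452 to 0.0063 in siTET3 against siTET1. In siTET3 against siTET2, UHRF1 ran from -0.1342 to 0.1653, UHRF2 from -0.0094 to 0.0553 and ZFP57 from -0.0412 to 0.2204.

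The difference between replicates 1 and 2 correlated between groups at r from -0.043 to 0.238, highest for siTET1 with siTET3. These coefficients cannot settle whether the replicate numbers pair the samples, and the labels do not say. With the replicate number as a replicate block, 66 of 70 values kept their side of the threshold, 4 passed it and none was lost, which were UHRF1 in siTET1 (-0.24, adjusted p = 0.0124), in siTET2 against siTET1 (adjusted p = 0.0225) and in siTET3 against siTET1 (adjusted p = 0.0161), and HELLS in siTET2 (adjusted p = 0.0450).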

Other observations

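Of 13 genes of the PIWI and piRNA pathway, which guides methylation of transposons in male germ cells of the mouse, 4 were above background. PIWIL1 had log2 intensities of 6.17 and 5.98 in siTET1, 5.80 and 5.93 in siTET2 and 6.2 and 6.19 in siTET3, against 5.19 and 5.37 in siNTC, and rose by 0.76 ± 0.087 in the mean of the depletions (limma adjusted p = 1.16e-05). The lower siNTC value of PIWIL1, 5.19, was below background, which limits how well the size of its rise is known. Of the 13 genes, 1 was called higher and 3 lower in the mean of the depletions, where 16.5% and 24.2% of all genes were. The number called lower depended on single arrays. ASZ1, 1 of the 3, was below background and ran from -0.27 to -0.16 with each array left out in turn. The other genes above background, PIWIL4, TDRD12 and PLD6, were not past the test in any depletion. Of 11 measured germline genes known to be silenced by promoter methylation, only DAZL was above background over the arrays, and none was called higher in any depletion, while 1 was in siTET1 without either siTET3 array. DAZL had log2 intensities of 5.37 and 5.46 in siTET1, 5.47 and 5.32 in siTET2 and 5.49 and 5.45 in siTET3, against 5.89 and 6.04 in siNTC, and fell by 0.54 ± 0.083 (adjusted p = 0.000153).

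Of 16 measured naive state and preimplantation genes, the stage at which DPPA3 is abundant, 4 were higher and 2 lower in the mean of the depletions. Over all genes, 16.5% were higher and 24.2% lower in that comparison. Of the 16, 10 were above background. TCL1B (2.44 ± 0.12) and PRDM14 (0.31 ± 0.040), which in mouse lowers the de novo methyltransferases, rose, and TFCP2L1 (-0.39 ± 0.074) and ZFP42 (-0.29 ± 0.043) fell. Of 11 measured imprinted genes whose methylation ZFP57 and TRIM28 protect in mouse, 3 were higher and 4 lower, beside the same shares of all genes. Their median change was 0.04, against -0.03 over all genes. INPP5F (0.64 ± 0.050) and DLK1 (0.42 ± 0.086) rose, and NNAT (-2.56 ± 0.054) and PEG10 (-0.59 ± 0.045) fell.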
